A study of Mus musculus with 18 samples.

Results

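The nuclear-encoded phenylalanine tRNAs (anticodon GAA, tRNA-Phe-GAA) and tryptophan tRNAs (anticodon CCA, tRNA-Trp-CCA) were followed through the hippocampus of WT and 5xFAD mice. Their members were all entries of the deposited table whose name begins with one of these anticodon families, mature and precursor, and the 9 antisense entries, which held 0 reads, were left out. This gave 78 of 3574 entries. They cover 3 isodecoders (mature tRNAs that share an anticodon and differ elsewhere in sequence) and 6 gene loci of tRNA-Phe-GAA, and 6 isodecoders and 8 loci of tRNA-Trp-CCA, out of 213 isodecoders and 335 loci in all. No locus of tRNA-Phe-GAA-2 was among the entries analysed.

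Phenylalanine and tryptophan are aromatic amino acids, and their tRNAs are made by RNA polymerase III as precursors with a leader and a trailer that are trimmed away before the CCA end is added. Unlike the precursors of the tyrosine tRNA, which carry an intron that must be spliced out, the mammalian precursors of both families have none, so their maturation needs no splicing. tRNA-Phe-GAA reads both phenylalanine codons and carries the bulky base wybutosine beside its anticodon, and tRNA-Trp-CCA reads the only tryptophan codon. The anticodon loops of both are 2′-O-methylated with the help of FTSJ1, a methyltransferase known for its link to intellectual disability.

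All mice were male and were injected on both sides, at 6 months of age, in the CA1 region and the dentate gyrus of the hippocampus, and were killed 4 weeks later. The vector was a neuron-targeted adeno-associated virus that expresses GFP and a short hairpin RNA, either a control (shCT, rAAV2/8-H1-shControl-RSV-GFP) or one against RTP801 (shRTP801, rAAV2/8-H1-shRTP801-RSV-GFP), a stress-induced regulator of mTOR signalling that is encoded by Ddit4. WT mice were on the B6SJL background. 5xFAD mice, a model of Alzheimer's disease, express human APP with the Swedish, London and Florida mutations and mutated human presenilin-1, both from the Thy-1 promoter, which is active in neurons, so the model has transgene expression where that promoter is on. The study asked whether tRNA species and their splicing differ with genotype and with silencing of RTP801. The WT mice were 5 with shCT and 4 with shRTP801, the 5xFAD mice 3 with shCT and 6 with shRTP801, each 1 library, and every mouse carried a vector, so no uninjected mouse serves as a background. The mRNA of RTP801 is not in RNA of tRNA size, and its silencing could not be checked in these libraries.

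In Hydro-tRNA-seq, RNA of 60 to 100 nucleotides is hydrolysed before sequencing. Summed over entries, without near-identical copies of other small RNA genes, a library held 18126375 to 34488923 read counts. Of these, 9850676 to 20292469 were on mature tRNAs and 47875 to 318628 on precursors. These sums can count 1 read for several entries, so they are not the sequencing depth, and shares of reads are shares of these counts. The libraries of 3 mice, named here by their numbers, stood apart. In WT shCT mouse 5, WT shRTP801 mouse 4 and 5xFAD shRTP801 mouse 7, mature tRNAs made up 98.0 to 98.7% of reads (31.9 to 85.8% in the other 15 libraries), mitochondrial tRNAs 0.00315 to 0.435% (8.59 to 39.8%), and the precursors numbered 1.01 to 1.72 per 100 mature reads (0.355 to 0.762). The brain-expressed snoRNAs Snord115 and Snord116 had 0 reads in these 3 libraries and 141 to 10126 in the others, while the brain-enriched tRNA-Arg-TCT-4 was read in all 18 (61 to 6619 reads). Because each of these libraries moves its group, results that rest on them are also given for the other 15 mice, an alternative chosen after the values were seen. In bulk tissue, fewer cells of a type and less RNA per cell cannot be told apart.

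Summed over isodecoders, mature tRNA-Trp-CCA took 0.598% of mature tRNA reads on average over the 18 mice and stood 20th of 50 families, while tRNA-Phe-GAA took 0.165% and stood 35th. This sum can count 1 read for several isodecoders. With the largest isodecoder of each read type alone, a lower bound on the reads of a family, the means were 0.204% for Trp and 0.153% for Phe. Among the 48 precursor families, pre-tRNA-Trp-CCA stood 28th (0.309% of precursor reads) and pre-tRNA-Phe-GAA 32nd (0.214%). The precursor values rest on few reads. Between 55 and 1298 reads (median 86.5) fell on pre-tRNA-Phe-GAA in a library, and between 106 and 1056 (median 220.5) on pre-tRNA-Trp-CCA. In the shallowest precursor library, WT shCT mouse 15, the Wilson 95% interval of the share of pre-tRNA-Phe-GAA ran from 0.0883 to 0.149% and that of pre-tRNA-Trp-CCA from 0.183 to 0.268%, which covers counting error only.

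Within tRNA-Phe-GAA, 1 isodecoder dominated. Over all mice tRNA-Phe-GAA-1 held 93.3% of the mature reads of the family, tRNA-Phe-GAA-3 held 3.82% and tRNA-Phe-GAA-2 held 2.89%. Some of the rarer Phe reads may be counted for more than 1 isodecoder, as given below. The Trp isodecoders cannot be separated in the same way. Counts of tRNA-Trp-CCA-1, -3, -4 and -6 differed from each other by only 0.109 to 0.912%, summed over libraries, so that these 4 may rest largely on the same reads, which the sum over the family would then count more than once. tRNA-Trp-CCA-5 differed from each of them by 12.2 to 12.8%. Only tRNA-Trp-CCA-2, with 34.2% of the counts of the family, had counts far from those of all others, by 57.8 to 62.7%. The counts cannot tell whether its reads include some that are also counted for the others. Its 5′ reads, for instance, came to 1111, and those of tRNA-Trp-CCA-4 to 1073.

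Nearly all reads of both families came from the 3′ part of the tRNA, as in many other families. Of the 445804 mature reads of tRNA-Phe-GAA, 99.9% were 3′ reads, the highest share of any of the 50 families by a small margin. Arg-ACG followed at 99.8% and Ser-CGA at 99.7%, and Leu-CAG, at rank 10, still had 99.1%. The rest of tRNA-Phe-GAA were 309 reads of the class "other", 32 of the 5′ part and 1 that spanned the whole tRNA. The other reads of tRNA-Phe-GAA-1 and tRNA-Phe-GAA-2 each came to 133, and the 5′ reads of tRNA-Phe-GAA-1, -2 and -3 to 11, 10 and 11. These sums may therefore count the same reads more than once. tRNA-Trp-CCA had 95.6% 3′ reads (rank 21), 3.94% other reads, 0.444% 5′ reads and 68 whole reads among 1637568. By mouse, the 3′ share of tRNA-Trp-CCA ran from 91.7% in 5xFAD shRTP801 mouse 14 to 97.5% in WT shCT mouse 5, and its 5′ share from 0.0806% in WT shCT mouse 5 to 1.61% in 5xFAD shCT mouse 16. The fit of read types (limma on log2 percentages, Benjamini-Hochberg adjustment over 200 pairs of family and read type) called 0 of the 8 members in any of the 5 contrasts, and 0% of all pairs. At an unadjusted p under 0.05, 1 member passed, the other reads of tRNA-Phe-GAA in the interaction (−0.72, adjusted p = 0.405 in limma), where 12% of all pairs did. These other reads numbered 5 to 37 per library.

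The precursors were read from several loci of each family. Of the 5203 reads of pre-tRNA-Phe-GAA, tRNA-Phe-GAA-1-3 gave 46.8%, tRNA-Phe-GAA-1-2 16.6%, tRNA-Phe-GAA-1-1 14.9%, tRNA-Phe-GAA-1-5 10.3%, tRNA-Phe-GAA-1-4 9.76% and tRNA-Phe-GAA-3-1 1.69%. The 5751 reads of pre-tRNA-Trp-CCA were spread more evenly, with tRNA-Trp-CCA-2-1 at 26.5%, tRNA-Trp-CCA-1-1 at 18.1%, tRNA-Trp-CCA-3-2 at 17.2%, tRNA-Trp-CCA-6-1 at 12.3%, tRNA-Trp-CCA-3-1 at 9.88%, tRNA-Trp-CCA-5-1 at 6.62%, tRNA-Trp-CCA-4-2 at 5.91% and tRNA-Trp-CCA-4-1 at 3.44%. Almost all of these reads covered a precursor in part, with 1 whole precursor read for Phe and 3 for Trp, and the trailer entries held 0 reads. RefSeq names 7 mouse genes of the Phe family (n-TFgaa) and 8 of the Trp family (n-TWcca), whose names could not be paired with those of the table. Several lie beside other tRNA genes, such as n-TFgaa2 between n-TKctt29 and n-TKctt30, while n-TWcca7 lies beside Aurkb and n-TWcca1 beside Rps12.

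The levels of mature tRNA-Phe-GAA overlapped between all 4 groups. As a percentage of mature tRNA reads, it was 0.169, 0.124, 0.206, 0.143 and 0.164% in WT shCT mice 3, 5, 6, 11 and 15, and 0.131, 0.169, 0.122 and 0.153% in WT shRTP801 mice 4, 10, 17 and 21. It was 0.187, 0.124 and 0.128% in 5xFAD shCT mice 1, 16 and 18, and ran from 0.115 over a median of 0.177 to 0.279% in the 6 5xFAD shRTP801 mice. The highest values, 0.242 and 0.279%, were in 5xFAD shRTP801 mice 8 and 12, and the lowest was in mouse 7 of the same group. The means were 0.161 ± 0.0309 (SD, n = 5), 0.144 ± 0.0218 (n = 4), 0.146 ± 0.0357 (n = 3) and 0.191 ± 0.0596% (n = 6). In limma, the difference between 5xFAD shRTP801 and 5xFAD shCT was 0.35 on the log2 scale (95% interval −0.22 to 0.92), and that between 5xFAD shCT and WT shCT was −0.15 (−0.74 to 0.44).

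Mature tRNA-Trp-CCA also overlapped in every comparison. It was 0.697, 0.912, 0.513, 0.685 and 0.546% of mature reads in the WT shCT mice (in the order of their numbers, as throughout), 0.720, 0.509, 0.515 and 0.586% in WT shRTP801, 0.652, 0.413 and 0.656% in 5xFAD shCT, and 0.373 to 0.696% with a median of 0.603% in 5xFAD shRTP801. The highest mouse of each of the groups WT shCT, WT shRTP801 and 5xFAD shRTP801 was the one whose library stood apart. The means were 0.671 ± 0.158, 0.583 ± 0.0985, 0.574 ± 0.139 and 0.560 ± 0.119% (SD). The limma differences were −0.23 (95% interval −0.79 to 0.33) for 5xFAD shCT against WT shCT and −0.03 (−0.58 to 0.51) for 5xFAD shRTP801 against 5xFAD shCT, and the sign of the second turned under other scalings.

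The study used the precursor of tRNA-Phe-GAA-1 as a control without an intron beside the tyrosine precursors. The whole family, pre-tRNA-Phe-GAA, had its lowest mean over the 18 mice in 5xFAD shCT. It took 0.258, 0.558, 0.148, 0.307 and 0.115% of precursor reads in WT shCT, 0.374, 0.171, 0.0881 and 0.110% in WT shRTP801, 0.142, 0.142 and 0.103% in 5xFAD shCT, and 0.106 to 0.407% (median 0.162%) in 5xFAD shRTP801. All 3 libraries that stood apart were the highest of their group, and WT shCT mouse 15 overlapped with the 5xFAD shCT mice. The 3 libraries averaged 0.447 ± 0.0981%, and the other 15 averaged 0.168 ± 0.0811% (SD). The 5xFAD shCT group held none of the 3, and WT shRTP801 mice 17 and 21, at 0.0881 and 0.110%, were as low as its mice. The means were 0.277 ± 0.176, 0.186 ± 0.130, 0.129 ± 0.0223 and 0.223 ± 0.130% (SD). The difference of −0.89 (95% interval −2.10 to 0.32) between 5xFAD shCT and WT shCT did not pass the test (adjusted p = 0.349 in limma), nor did the interaction of 1.19 (adjusted p = 0.363 in limma), the shRTP801 effect in 5xFAD minus that in WT. With each mouse left out in turn, the difference ran from −1.15 to −0.58 and the interaction from 0.89 to 1.61.

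Over the 18 mice, pre-tRNA-Trp-CCA had its highest mean in 5xFAD shCT. It took 0.355, 0.341, 0.392, 0.372 and 0.221% of precursor reads in WT shCT, 0.428, 0.262, 0.278 and 0.208% in WT shRTP801, 0.417, 0.392 and 0.311% in 5xFAD shCT, and 0.171 to 0.394% (median 0.244%) in 5xFAD shRTP801. The 5xFAD shCT mice were on the high side, while 3 of the 6 5xFAD shRTP801 mice lay at or below 0.206%, and the groups overlapped. The means were 0.336 ± 0.0670, 0.294 ± 0.0942, 0.373 ± 0.0556 and 0.264 ± 0.0867% (SD). The difference between 5xFAD shRTP801 and 5xFAD shCT was −0.55 (95% interval −1.21 to 0.12, adjusted p = 0.568 in limma).

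None of these family levels passed a test. limma with Benjamini-Hochberg adjustment called 0 members, and 0% of all 49 mature and 48 precursor families, in each of the 5 contrasts. At an unadjusted p under 0.05 it also passed 0 of the members, where 4.08, 12.2, 2.04, 0 and 8.16% of the mature families and 12.5, 4.17, 4.17, 6.25 and 20.8% of the precursor families passed in the contrasts 5xFAD shCT against WT shCT, WT shRTP801 against WT shCT, 5xFAD shRTP801 against 5xFAD shCT, 5xFAD shRTP801 against WT shRTP801, and the interaction. On recovered reads edgeR called 0 families in either class, and DESeq2 called 1 mature family, which was neither member, for WT shRTP801 against WT shCT. The 16 two-sided exact permutation tests of the percentages, 4 contrasts of both classes of both families, gave p from 0.107 (pre-tRNA-Trp-CCA, 5xFAD shRTP801 against 5xFAD shCT) to 0.821. The smallest p that the group sizes allow was 0.0179, 0.00794, 0.0119 and 0.00476 for the first 4 contrasts. Contrasts that share a group of mice are not independent of each other.

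**Figure D1:**
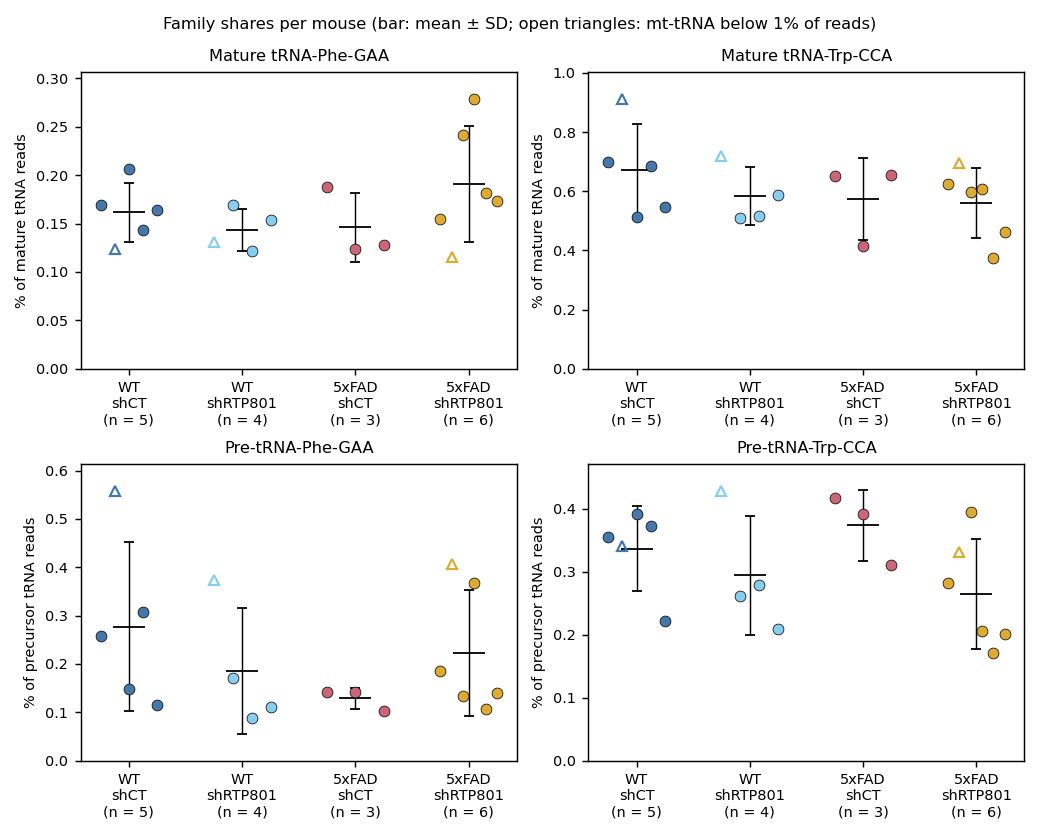
Percentage of mature tRNA reads (upper panels) and of precursor tRNA reads (lower panels) on tRNA-Phe-GAA and tRNA-Trp-CCA in each mouse, with 1 point per mouse, bars for the mean ± SD of a group, and open triangles for the 3 libraries with mitochondrial tRNA below 1% of reads. The groups overlap in all 4 panels, and the triangles are the highest point of their group for pre-tRNA-Phe-GAA.

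**Figure D2:**
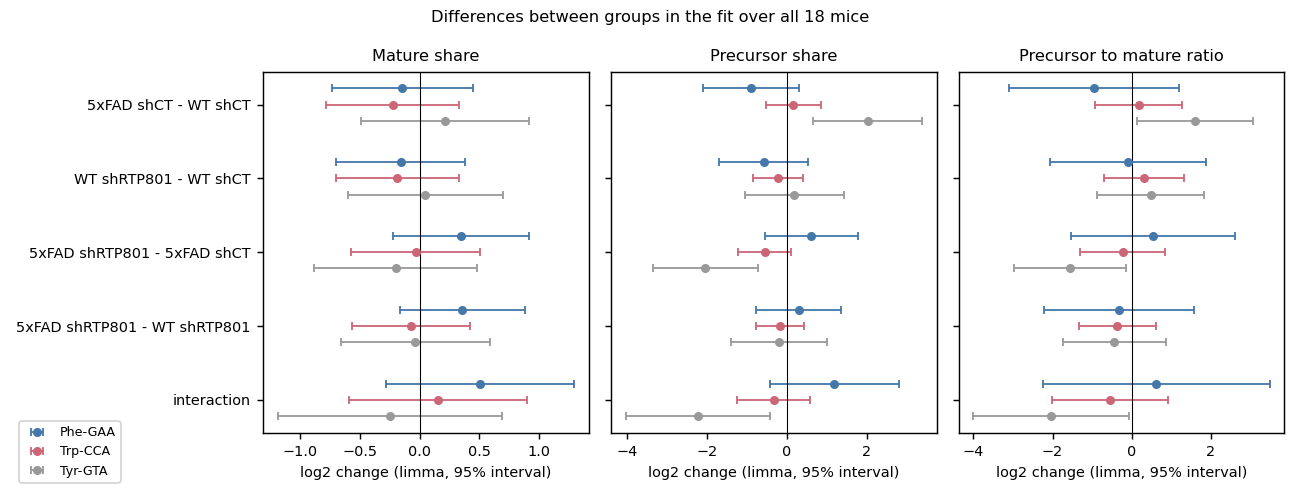
Differences between groups on the log2 scale (points, limma over 18 mice) with 95% intervals (bars) for the mature share, the precursor share and the ratio of precursor to mature reads, with tyrosine tRNA in grey. All intervals of tRNA-Phe-GAA and tRNA-Trp-CCA include 0, whereas 3 intervals of tRNA-Tyr-GTA (5xFAD shCT against WT shCT, 5xFAD shRTP801 against 5xFAD shCT, and the interaction) leave it out, before adjustment, for the precursor share and for the ratio.

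Summed over isodecoders, mature tRNA-Trp-CCA counts exceeded those of tRNA-Phe-GAA in every mouse. The ratio of Trp to Phe counts was 4.12, 7.36, 2.49, 4.78 and 3.32 in WT shCT, 5.52, 3.001, 4.23 and 3.82 in WT shRTP801, 3.48, 3.34 and 5.14 in 5xFAD shCT, and 2.06 to 6.03 (median 2.57) in 5xFAD shRTP801. The libraries that stood apart were again the highest of their groups, and the groups overlapped. Two-sided exact permutation tests of the log2 ratio gave p = 0.839, 0.937, 0.369 and 0.238 for the first 4 contrasts. The sum can count 1 read for several Trp isodecoders, so the ratio is one of counts and not of molecules. With the largest isodecoder of each read type alone, the ratio ran from 0.729 to 2.43 and Phe lay above Trp in 5 of the 18 mice, with exact permutation p = 0.571, 0.857, 0.631 and 0.243.

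Among precursors the same ratio was high in 5xFAD shCT mice. Trp to Phe precursor reads stood at 2.94, 2.76 and 3.01 in 5xFAD shCT, against 1.38, 0.610, 2.65, 1.21 and 1.93 in WT shCT, 1.14, 1.53, 3.16 and 1.89 in WT shRTP801, and 0.561 to 2.93 (median 1.48) in 5xFAD shRTP801. All 3 5xFAD shCT mice lay above all 5 WT shCT mice. Mouse 8 reached them among the 5xFAD shRTP801 mice, and WT shRTP801 mouse 17 lay above all 3. The 3 libraries that stood apart, none of them 5xFAD shCT, had low ratios. Their mean was 0.856 ± 0.270, against 2.04 ± 0.807 in the other 15 (SD). Between 5xFAD shCT and WT shCT the difference was 1.06 on the log2 scale (two-sided exact permutation p = 0.0536). It was smaller without the libraries that stood apart, as given further below. For 5xFAD shRTP801 against 5xFAD shCT the exact p was 0.0595. After Benjamini-Hochberg adjustment over the contrasts, both exact tests had p = 0.119. These tests were added after the values were seen, and how often other pairs of families separate in this way was not counted. The other contrasts gave an exact p = 0.468 and 0.381.

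Set against the tyrosine precursors, which hold an intron, both families were compared by the ratio of reads. Tyr to Phe precursor reads were 6.51, 8.56 and 6.51 in 5xFAD shCT, 0.751, 0.231, 1.68, 0.369 and 6.65 in WT shCT, 0.317, 2.24, 2.94 and 3.20 in WT shRTP801, and 0.223 to 3.29 (median 2.06) in 5xFAD shRTP801. All 6 5xFAD shRTP801 values were under the 3 of 5xFAD shCT, while WT shCT mouse 15 reached the 5xFAD shCT level. The libraries that stood apart were among the lowest, at 0.231 (WT shCT mouse 5), 0.317 (WT shRTP801 mouse 4) and 0.250 (5xFAD shRTP801 mouse 7). The exact two-sided permutation p was 0.0595 for 5xFAD shRTP801 against 5xFAD shCT and 0.0893 for 5xFAD shCT against WT shCT. Both were 0.238 after Benjamini-Hochberg adjustment. For Tyr to Trp, with 2.21, 3.10 and 2.16 in 5xFAD shCT and 0.308 to 2.03 (median 0.935) in 5xFAD shRTP801, the exact p was 0.0357, and 0.238 after Benjamini-Hochberg adjustment over the 8 tests of Tyr ratios. The Tyr to Trp ratio was 0.546, 0.379, 0.633, 0.305 and 3.45 in WT shCT, so that mouse 15 lay above every 5xFAD shCT mouse (exact p = 0.125 for 5xFAD shCT against WT shCT), and 0.277, 1.47, 0.930 and 1.69 in WT shRTP801. Both ratios were chosen with earlier results of the tyrosine precursors known, and how often other pairs of families separate in this way was not counted.

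In the make-up of the Phe family, the rare isodecoders tRNA-Phe-GAA-2 and tRNA-Phe-GAA-3 had their highest means in 5xFAD shCT and WT shRTP801 mice. tRNA-Phe-GAA-2 made up 2.71, 1.54, 3.16, 2.65 and 2.77% of the mature Phe reads in WT shCT, 2.02, 4.45, 3.41 and 3.35% in WT shRTP801, 3.60, 4.13 and 3.39% in 5xFAD shCT, and 1.96 to 3.19% (median 2.60%) in 5xFAD shRTP801. All 3 5xFAD shCT mice were above all WT shCT and all 5xFAD shRTP801 mice, while in WT the shRTP801 mice were high except for mouse 4. The exact permutation p was 0.0179 against WT shCT, the smallest that 3 against 5 mice can give, and 0.0238 for 5xFAD shRTP801 against 5xFAD shCT. An equal lack of overlap was seen in 8% and 4% of the 175 isodecoders tested for make-up.

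tRNA-Phe-GAA-3 made up 3.16, 6.39, 3.22, 3.39 and 3.11% of the Phe reads in WT shCT, 3.89, 5.57, 4.49 and 5.05% in WT shRTP801, 5.29, 4.06 and 6.11% in 5xFAD shCT, and 1.32 to 6.46% (median 3.19%) in 5xFAD shRTP801. Apart from WT shCT mouse 5 and 5xFAD shRTP801 mouse 7, at 6.39 and 6.46%, no WT shCT or 5xFAD shRTP801 mouse exceeded 3.92%. tRNA-Phe-GAA-1 mirrored both, at 94.1, 92.1, 93.6, 94.0 and 94.1% in WT shCT, 94.1, 90.0, 92.1 and 91.6% in WT shRTP801, 91.1, 91.8 and 90.5% in 5xFAD shCT and 91.6 to 96.3% (median 94.0%) in 5xFAD shRTP801, as shares of 1 total must. The reads behind tRNA-Phe-GAA-2 numbered 373 to 1804 and those behind tRNA-Phe-GAA-3 numbered 394 to 1551 per library.

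Over all 18 mice this make-up did not pass the test. limma on log2 percentages of the family called 0 members and 0% of the 175 isodecoders in every contrast. The interaction was −0.83 for tRNA-Phe-GAA-2 (adjusted p = 0.203), −1.07 for tRNA-Phe-GAA-3 (adjusted p = 0.330) and 0.07 for tRNA-Phe-GAA-1 (adjusted p = 0.311, limma with Benjamini-Hochberg adjustment), all 3 under an unadjusted p of 0.05, where 14.3% of isodecoders were. tRNA-Phe-GAA-2 also had an unadjusted p of 0.0374 (difference 0.55, limma adjusted p = 0.385) for 5xFAD shCT against WT shCT, where 12% of isodecoders passed, and of 0.0499 (−0.49, limma adjusted p = 0.485) for 5xFAD shRTP801 against 5xFAD shCT, where 10.3% did.

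Among the 15 mice left without the 3 libraries that stood apart, the interaction passed for all 3 Phe isodecoders. It was −0.80 for tRNA-Phe-GAA-2 (adjusted p = 0.0270), −1.57 for tRNA-Phe-GAA-3 (adjusted p = 0.0384) and 0.09 for tRNA-Phe-GAA-1 (adjusted p = 0.0482) in limma with Benjamini-Hochberg adjustment, which called 13 isodecoders or 7.43% of the 175, and 0 of the 6 Trp isodecoders. In these mice tRNA-Phe-GAA-2 averaged 2.82 ± 0.231% in WT shCT (SD, n = 4) and 3.73 ± 0.619% in WT shRTP801 (n = 3), but 3.71 ± 0.384% in 5xFAD shCT (n = 3) and 2.76 ± 0.367% in 5xFAD shRTP801 (n = 5). tRNA-Phe-GAA-3 averaged 3.22 ± 0.123, 5.03 ± 0.540, 5.15 ± 1.03 and 2.76 ± 1.04% in the same groups. For both isodecoders, the groups did not overlap in any of the 4 contrasts, where 10.3, 7.43, 6.29 and 5.14% of isodecoders did the same in the same direction. The exact permutation p was 0.0286 for 5xFAD shCT and for WT shRTP801 against WT shCT, the smallest these groups allow, and 0.0357 for 5xFAD shRTP801 against each of 5xFAD shCT and WT shRTP801. Such a pattern in all 4 contrasts at once was seen in 4 isodecoders, 2.29% of the 175, with both of these Phe isodecoders among them. The directions counted were those of these isodecoders, and the libraries left out, a choice made after the values were seen, include those that break the pattern. The share and the passed interaction therefore cannot serve as independent support.

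The composition of the libraries moved with the same crossover. Mature tRNAs made up 31.9 to 82.4% of reads (median 72.3%) in these WT shCT mice and 34.1 to 46.9% (41.6%) in WT shRTP801, against 39.1 to 52.9% (39.6%) in 5xFAD shCT and 47.1 to 85.8% (62.2%) in 5xFAD shRTP801. With the log2 mature share of reads as a covariate, also chosen after the values were seen, the interaction among the 15 mice was −0.88 for tRNA-Phe-GAA-2 (adjusted p = 0.0812) and −1.65 for tRNA-Phe-GAA-3 (adjusted p = 0.174), and limma called 0 of the 175 isodecoders. Over all 18 mice with this covariate, tRNA-Phe-GAA-2 had −0.45 (adjusted p = 0.632 in limma) and tRNA-Phe-GAA-3 −1.35 (adjusted p = 0.409). The part of library composition in the make-up was not tested further.

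tRNA-Trp-CCA-2, the Trp isodecoder with the most counts, made up 36.3, 30.4, 35.8, 37.6 and 33.2% of the Trp counts in WT shCT, 35.9, 33.7, 30.0 and 33.7% in WT shRTP801, 34.8, 25.3 and 31.0% in 5xFAD shCT, and 31.1 to 40.9% (median 35.5%) in 5xFAD shRTP801. The lowest mouse of all was 5xFAD shCT mouse 16, and the groups overlapped. The difference of 0.24 between 5xFAD shRTP801 and 5xFAD shCT had an adjusted p of 0.448 in limma (unadjusted p = 0.0322). tRNA-Trp-CCA-1 made up 12.5, 13.9, 11.8, 12.2 and 13.2% in WT shCT, 12.8, 12.5, 14.01 and 12.9% in WT shRTP801, 12.6, 14.5 and 13.8% in 5xFAD shCT and 11.3 to 13.9% (median 12.6%) in 5xFAD shRTP801, and tRNA-Trp-CCA-3, -4 and -6, with nearly equal counts, ran alike from 11.1 to 14.6%. tRNA-Trp-CCA-5 was at 13.9, 14.1, 17.2, 13.8 and 14.3% in WT shCT, 13.1, 16.3, 14.1 and 15.0% in WT shRTP801, 15.1, 16.7 and 13.8% in 5xFAD shCT and 12.5 to 17.8% (median 13.7%) in 5xFAD shRTP801, and 0 of the 6 Trp isodecoders passed the test. As shares of all mature reads, limma called 0 of the 9 isodecoders and 0% of the 186 tested, and 0 of the 9 passed an unadjusted p of 0.05, where 5.38, 10.8, 1.08, 0.538 and 9.68% of all isodecoders passed in the 5 contrasts. edgeR on recovered reads called 0 of the 186 isodecoders as well, and DESeq2 called 1, which was no member, for WT shRTP801 against WT shCT.

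**Figure D3:**
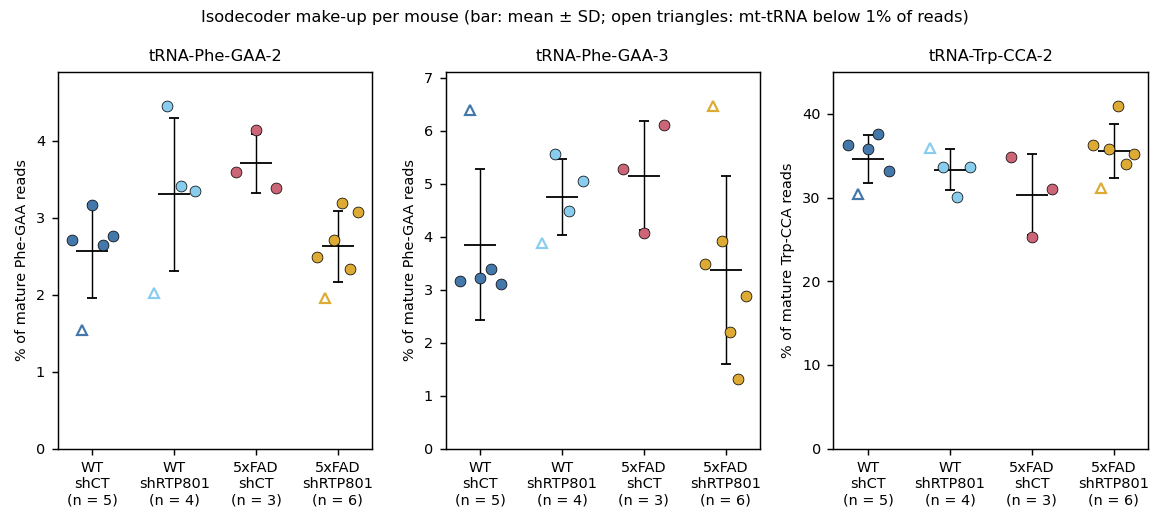
Percentage of the mature reads of its family that fell on tRNA-Phe-GAA-2, tRNA-Phe-GAA-3 and tRNA-Trp-CCA-2 in each mouse, with 1 point per mouse, bars for the mean ± SD of a group over all its mice, and open triangles for the 3 libraries with mitochondrial tRNA below 1% of reads. Among the filled points, WT shCT and 5xFAD shRTP801 lie below WT shRTP801 and 5xFAD shCT for both Phe isodecoders, and 1 triangle breaks this pattern for tRNA-Phe-GAA-2 and all 3 do for tRNA-Phe-GAA-3.

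The loci tRNA-Trp-CCA-3-1, -3-2, -2-1 and -4-1 had their highest mean in 5xFAD shCT mice. For -2-1 (0.0992 against 0.0968% in WT shCT) and -4-1 (0.0113 against 0.0110% in WT shRTP801) the margin was small. How many of all loci were highest in this group was not counted. The precursor of tRNA-Trp-CCA-3-1 took 0.0445, 0.0590 and 0.0348% of precursor reads in 5xFAD shCT, against 0.0224, 0.0280, 0.0255, 0.0283 and 0.0292% in WT shCT, 0.0395, 0.0256, 0.0309 and 0.0296% in WT shRTP801, and 0.0240 to 0.0336% (median 0.0285%) in 5xFAD shRTP801. All 3 5xFAD shCT mice lay above all WT shCT and all 5xFAD shRTP801 mice, a lack of overlap that 6.91% and 4.5% of the 333 loci tested showed in the same direction. The means were 0.0461 ± 0.0122 (SD, n = 3) in 5xFAD shCT and 0.0267 ± 0.00277% (n = 5) in WT shCT. The limma difference was 0.74 (SE 0.32, unadjusted p = 0.0326, adjusted p = 0.313), and the exact permutation p was 0.0179, and 0.0119 for 5xFAD shRTP801 against 5xFAD shCT, in both cases the smallest that these group sizes can give. Over the 56 exact tests of the 14 loci, no adjusted p was below 0.5, the value of these 2 tests. Without the 3 libraries that stood apart the difference was 0.76 (limma adjusted p = 0.290). These values rest on 13 to 107 reads per library.

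The direction at tRNA-Trp-CCA-3-1 holds for shares of the precursors alone. As a share of all reads of a library, the locus differed between 5xFAD shCT and WT shCT by −0.09, and on the deposited normalised values by −0.23. The median over all precursor families shifted to −0.86 and −1.002 on these scales, and the locus lay above it. That is a median of families, and none over loci is given on these scales.

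The precursor of tRNA-Trp-CCA-3-2 took 0.130, 0.126 and 0.102% in 5xFAD shCT, 0.0254, 0.0271, 0.144, 0.0406 and 0.0460% in WT shCT, 0.0417, 0.0689, 0.0744 and 0.0739% in WT shRTP801, and 0.0228 to 0.114% (median 0.0444%) in 5xFAD shRTP801. WT shCT mouse 6 was the highest of all 18 mice, and 5xFAD shRTP801 mouse 8 also overlapped with 5xFAD shCT. The limma differences were 1.37 for 5xFAD shCT against WT shCT (adjusted p = 0.313), −1.33 for 5xFAD shRTP801 against 5xFAD shCT (adjusted p = 0.598) and −1.80 for the interaction (adjusted p = 0.275). The exact permutation p was 0.0357 for 5xFAD shRTP801 against 5xFAD shCT and 0.143 for 5xFAD shCT against WT shCT.

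The other Trp loci overlapped between all groups. tRNA-Trp-CCA-1-1 took 0.0672, 0.0674, 0.0346, 0.0811 and 0.0460% in WT shCT, 0.106, 0.0394, 0.0469 and 0.0269% in WT shRTP801, 0.0330, 0.0551 and 0.0450% in 5xFAD shCT and 0.0208 to 0.0665% (median 0.0343%) in 5xFAD shRTP801. tRNA-Trp-CCA-2-1, the Trp locus with the most reads, took 0.106, 0.109, 0.129, 0.0934 and 0.0460% in WT shCT, 0.106, 0.0787, 0.0664 and 0.0349% in WT shRTP801, 0.152, 0.0964 and 0.0493% in 5xFAD shCT and 0.0256 to 0.189% (median 0.0484%) in 5xFAD shRTP801. WT shRTP801 mouse 4 was the highest for the first of these and 5xFAD shRTP801 mouse 8 for the second. tRNA-Trp-CCA-6-1 took 0.0538, 0.0482, 0.0128, 0.0735 and 0.0146% in WT shCT, 0.0763, 0.0216, 0.0149 and 0.0175% in WT shRTP801, 0.0132, 0.0118 and 0.0363% in 5xFAD shCT and 0.00480 to 0.0490% (median 0.0266%) in 5xFAD shRTP801. WT shRTP801 mouse 4 was again the highest of all mice.

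Lower still were tRNA-Trp-CCA-5-1 and both loci of tRNA-Trp-CCA-4. tRNA-Trp-CCA-5-1 took 0.0388, 0.0263, 0.0201, 0.0253 and 0.0272% in WT shCT, 0.0267, 0.0138, 0.0172 and 0.00941% in WT shRTP801, 0.0231, 0.0216 and 0.0160% in 5xFAD shCT and 0.00641 to 0.0279% (median 0.0185%) in 5xFAD shRTP801. Of the 4 WT shRTP801 mice, 3 lay below every WT shCT mouse, with an exact permutation p of 0.0635. tRNA-Trp-CCA-4-1 took 0.0134, 0.00919, 0.0109, 0.00612 and 0.00418% in WT shCT, 0.00779, 0.00590, 0.0195 and 0.0108% in WT shRTP801, 0.00989, 0.0138 and 0.0102% in 5xFAD shCT and 0.00416 to 0.0201% (median 0.00865%) in 5xFAD shRTP801. tRNA-Trp-CCA-4-2 took 0.0284, 0.0254, 0.0146, 0.0237 and 0.00836% in WT shCT, 0.0245, 0.00787, 0.00801 and 0.00538% in WT shRTP801, 0.0115, 0.00787 and 0.0174% in 5xFAD shCT and 0.00832 to 0.0270% (median 0.0149%) in 5xFAD shRTP801. The loci of tRNA-Trp-CCA-4 rest on 2 to 86 reads per library.

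Among the Phe loci, tRNA-Phe-GAA-1-3 took 0.140, 0.259, 0.0638, 0.174 and 0.0501% in WT shCT, 0.172, 0.0551, 0.0332 and 0.0538% in WT shRTP801, 0.0643, 0.0472 and 0.0581% in 5xFAD shCT and 0.0353 to 0.218% (median 0.0841%) in 5xFAD shRTP801. The 5xFAD shCT mice were close together. WT shCT mice 6 and 15 and WT shRTP801 mice 10 and 21 lay within their range, and WT shRTP801 mouse 17 lay below it. tRNA-Phe-GAA-1-1 took 0.0418, 0.0578, 0.0657, 0.0298 and 0.0355% in WT shCT, 0.0423, 0.0571, 0.0149 and 0.0309% in WT shRTP801, 0.0495, 0.0335 and 0.0218% in 5xFAD shCT and 0.0277 to 0.0639% (median 0.0439%) in 5xFAD shRTP801. tRNA-Phe-GAA-1-2 took 0.0239, 0.126, 0.0109, 0.0421 and 0.0125% in WT shCT, 0.0635, 0.0118, 0.0195 and 0.00403% in WT shRTP801, 0.00659, 0.0315 and 0.00871% in 5xFAD shCT and 0.00970 to 0.0813% (median 0.0157%) in 5xFAD shRTP801. The libraries that stood apart were the highest of their group here, as they were for the 2 loci that follow.

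tRNA-Phe-GAA-1-4 took 0.0284, 0.0512, 0.00365, 0.0329 and 0.00836% in WT shCT, 0.0384, 0.0335, 0.00687 and 0.00672% in WT shRTP801, 0.00824, 0.0197 and 0.00726% in 5xFAD shCT and 0.00801 to 0.0427% (median 0.0220%) in 5xFAD shRTP801. tRNA-Phe-GAA-1-5 took 0.0239, 0.0573, 0.00365, 0.0214 and 0.00836% in WT shCT, 0.0529, 0.0138, 0.00801 and 0.0121% in WT shRTP801, 0.00989, 0.00787 and 0.00726% in 5xFAD shCT and 0.00832 to 0.0527% (median 0.0126%) in 5xFAD shRTP801. tRNA-Phe-GAA-3-1, the only locus of its isodecoder, had at most 30 reads in a library and 0 reads in 5 libraries, which allows a share of up to 0.00435 to 0.00627% there. Its other libraries ran to 0.00942%, in 5xFAD shRTP801 mouse 7.

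Over all loci, limma called 0 of the 14 members and 0% of the 333 loci in each contrast, and so did edgeR and DESeq2 on recovered reads. At an unadjusted p under 0.05, limma passed 2 of the 8 Trp loci, those of tRNA-Trp-CCA-3, for 5xFAD shCT against WT shCT, where 15.6% of all loci passed. It passed 1, tRNA-Trp-CCA-3-2, for 5xFAD shRTP801 against 5xFAD shCT (7.51% of all loci) and for the interaction (15.3%), and 0 of the 6 Phe loci in any contrast. For 5xFAD shCT against WT shCT, the 6 Phe loci had a median difference of −0.78 (−1.14 to 0.04) and the 8 Trp loci one of −0.20 (−0.83 to 1.37). Over all loci the median was 0.03 (−2.45 to 3.75). WT shCT mouse 5, whose library stood apart, was the highest of its group at tRNA-Phe-GAA-1-2, -1-3, -1-4 and -1-5.

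**Figure D4:**
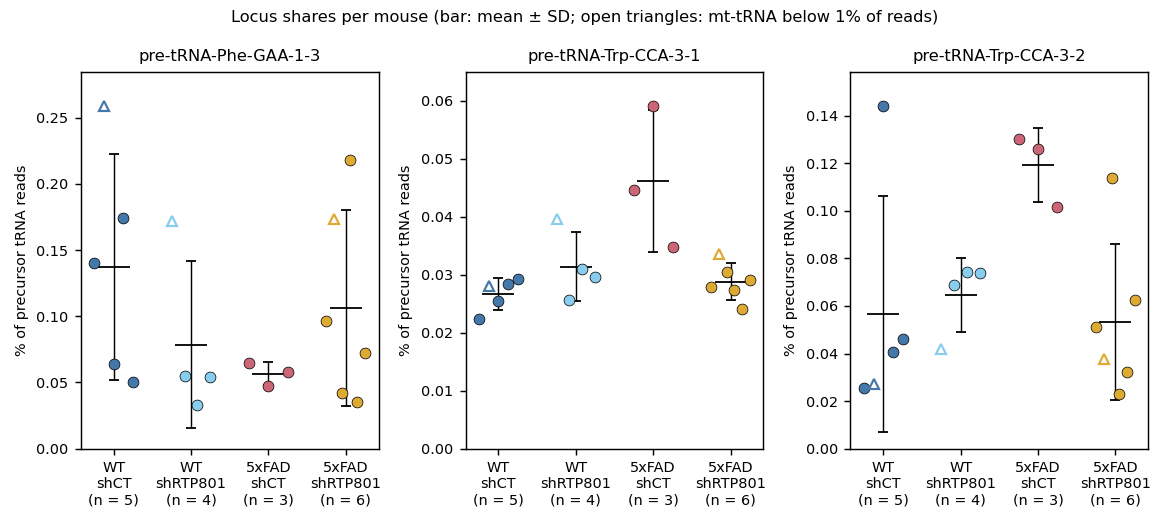
Percentage of precursor tRNA reads on the precursors of tRNA-Phe-GAA-1-3, tRNA-Trp-CCA-3-1 and tRNA-Trp-CCA-3-2 in each mouse, with 1 point per mouse, bars for the mean ± SD of a group, and open triangles for the 3 libraries with mitochondrial tRNA below 1% of reads. The 5xFAD shCT mice lie above WT shCT and 5xFAD shRTP801 for tRNA-Trp-CCA-3-1, and 1 mouse of each of these groups reaches them for tRNA-Trp-CCA-3-2.

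The number of precursor reads per 100 mature reads differed between libraries far more for Phe than for Trp. For tRNA-Phe-GAA it was 0.542, 5.25, 0.259, 1.63 and 0.311 in WT shCT, 2.89, 0.520, 0.442 and 0.542 in WT shRTP801, 0.325, 0.450 and 0.517 in 5xFAD shCT, and 0.221 to 6.09 (median 0.501) in 5xFAD shRTP801. The 3 libraries that stood apart held 2.89 to 6.09 and the other 15 held 0.221 to 1.63, so they did not overlap. For tRNA-Trp-CCA it was 0.181, 0.436, 0.276, 0.414 and 0.180 in WT shCT, 0.600, 0.265, 0.329 and 0.268 in WT shRTP801, 0.275, 0.373 and 0.303 in 5xFAD shCT, and 0.174 to 0.821 (median 0.225) in 5xFAD shRTP801, and here too the same 3 libraries, at 0.436 to 0.821, lay above the other 15. limma called 0 of both members and 0% of the 48 families in each contrast, and at an unadjusted p under 0.05 passed 0 of both, where 6.25, 0, 4.17, 0 and 4.17% of families passed. The Phe difference between 5xFAD shRTP801 and 5xFAD shCT was 0.54 over all mice and −0.11 among the 15 mice.

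**Figure D5:**
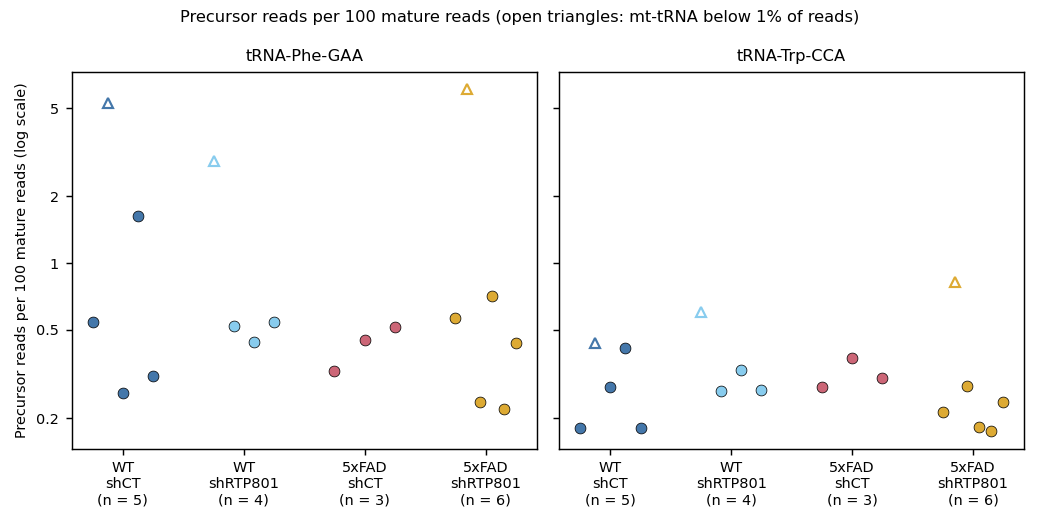
Precursor reads per 100 mature reads (log axis) of tRNA-Phe-GAA and tRNA-Trp-CCA in each mouse, with 1 point per mouse and open triangles for the 3 libraries with mitochondrial tRNA below 1% of reads. The triangles lie at 2.89 to 6.09 for Phe and 0.436 to 0.821 for Trp, above all other mice.

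Families whose levels followed those of the members most closely are given as a description. Over the 18 mice, the log2 share of mature tRNA-Phe-GAA went most with Val-CAC (Pearson r = 0.81), Ile-TAT (0.78) and Gly-CCC (0.75), and kept these 3 as its closest among the 15 mice. Mature tRNA-Trp-CCA went most with Val-AAC (0.88), Gly-ACC (0.85) and Arg-TCG (0.83). Pre-tRNA-Phe-GAA went with Asn-GTT (0.95), Val-AAC (0.91) and Val-CAC (0.83), while pre-tRNA-Trp-CCA reached only 0.53 with Val-TAC, 0.45 with Glu-TTC and 0.44 with Leu-AAG. Phe with Trp gave −0.22 for mature tRNAs and 0.32 for precursors. Among the 15 mice the order differed. Mature tRNA-Trp-CCA went most with Thr-AGT (0.88, against 0.43 over all mice) and pre-tRNA-Trp-CCA with iMet-CAT (0.72, against 0.36), while pre-tRNA-Phe-GAA still went most with Asn-GTT (0.89). Phe with Trp then gave 0.10 for mature tRNAs and 0.16 for precursors. Shares of 1 total in the same libraries are not independent, and the mice include the 3 libraries that stood apart.

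In all, 230 tests of members were run over the 7 kinds of value and 5 contrasts. limma called 0 of them (lowest adjusted p = 0.203), while 11 passed before adjustment.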

How the data were processed

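RNA of 60 to 100 nucleotides from the hippocampus of 18 mice was sequenced by Hydro-tRNA-seq (50 base pairs, paired ends). The authors counted reads per mature tRNA, precursor locus and read type with tRAX and divided each library by a size factor, so the unit of the deposited numbers is a normalized signal. The submitters' processing notes name mm39, and the aligner is not given in the sources used here. All values (100% in each library) were whole multiples of 1 value per library within a tolerance of 0.001, and reads were recovered by that division.

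Reads of a family were summed over its isodecoders or loci, and library totals leave out 324 near-identical copies (within 5%) of other small RNA genes. Percentages of the class plus 0.001%, of the family plus 0.1%, or ratios with 0.5 reads added, were compared on the log2 scale with limma 3.58.1 in R 4.3.3, in 1 fit over the 4 groups, keeping features whose mean reached 0.001% of the class or 0.1% of the family. Benjamini-Hochberg adjustment ran over all features of a fit, with a threshold of 0.05. Single values were compared with two-sided exact permutation tests in Python 3.11.15 with SciPy 1.17.1. The limma fit of class percentages was tested on simulated data. The make-up, read type and ratio fits were not simulated on their own scales, nor were libraries like the 3 that stood apart. Alternatives were other pseudocounts, filters and scalings, the class without its most abundant family, only the groups compared, the mature share of reads as a covariate, DESeq2 1.42.0 and edgeR 4.0.16 on the recovered reads, and leaving out each mouse. The largest isodecoder per read type, the 3 libraries left out, the covariate in the make-up, and the tests of precursor ratios, loci and make-up by permutation were added after the values were seen.

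Named are both families and each isodecoder or locus with at least 1% of the reads of its family, with tyrosine tRNA and the mitochondrial tRNAs of the same amino acids as comparators and the 3 families most alike in level. The members and lists were chosen with earlier results of these data known. Each library is a separate mouse. Gene names of RefSeq come from a table of assembly GRCm38, of which no coordinate was used, and no sequence of the tRNAs was in the tables used here.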

Additional observations from a re-analysis of the deposited data

Results flagged for a closer look

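Within groups of 4 to 6 mice, 93 sets of values were searched for a single mouse far from its group, by Dixon's criterion at the 95% level, and 18 were found, where chance gives about 1 in 20 groups. Of these, 15 belong to the 3 libraries nearly free of mitochondrial tRNA.

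Precursor reads per 100 mature reads of tRNA-Phe-GAA were 6.09 in 5xFAD shRTP801 mouse 7 (at most 0.712 in the rest of the group), 5.25 in WT shCT mouse 5 (at most 1.63) and 2.89 in WT shRTP801 mouse 4 (at most 0.542), and those of tRNA-Trp-CCA were 0.821 in 5xFAD shRTP801 mouse 7 (at most 0.281). In WT shCT mouse 5, tRNA-Phe-GAA-3 reached 6.39% of the mature Phe reads (at most 3.39% in the rest) and tRNA-Phe-GAA-1 was at 92.1% (at least 93.6%), and the precursor of tRNA-Phe-GAA-1-2 took 0.126% of precursor reads (at most 0.0421%). In 5xFAD shRTP801 mouse 7, the precursors of tRNA-Phe-GAA-1-2, tRNA-Phe-GAA-1-5 and tRNA-Trp-CCA-4-1 took 0.0813% (at most 0.0301%), 0.0527% (at most 0.0237%) and 0.0201% (at most 0.00961%). In WT shRTP801 mouse 4, the precursors of tRNA-Phe-GAA-1-3, tRNA-Phe-GAA-1-5, tRNA-Trp-CCA-4-2 and tRNA-Trp-CCA-6-1 took 0.172% (at most 0.0551%), 0.0529% (at most 0.0138%), 0.0245% (at most 0.00801%) and 0.0763% (at most 0.0216%), while tRNA-Trp-CCA-3-2 was low at 0.0417% (at least 0.0689%).

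In other libraries, WT shCT mouse 6 had 0.144% of its precursor reads on tRNA-Trp-CCA-3-2 (at most 0.0460% in the rest) and 17.2% of its Trp counts on tRNA-Trp-CCA-5 (at most 14.3%), and 5xFAD shRTP801 mouse 8 had 0.189% on tRNA-Trp-CCA-2-1 (at most 0.0800%).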

How the results depend on the processing

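Of 2073 recomputed values of the members, 78 turned their sign and 3 passed a threshold that was missed before. No paired analysis was possible because the mouse numbers are unique and the groups share none. Precursor values rest on few reads, so changes in single loci were limited by depth, and the 5xFAD shCT group had 3 mice. For 5xFAD shRTP801 against 5xFAD shCT, mature tRNA-Trp-CCA (−0.03) became 0.64 as a share of all reads, 0.52 on the deposited values, 0.19 after centring on the median, 0.076 without the most abundant family, 0.18 in edgeR, 0.10 in DESeq2 and 0.11 with the largest isodecoder. Against WT shRTP801 it became 0.39 (all reads), 0.18 (deposited), 0.082 without the most abundant family and 0.018 in edgeR, and its interaction −0.24 with the mature share as a covariate. Pre-tRNA-Trp-CCA turned to −0.67 (all reads), −0.81 (deposited) and −0.0018 (centred) for 5xFAD shCT against WT shCT, 0.41 and 0.29 (all reads, deposited) for 5xFAD shRTP801 against 5xFAD shCT, 0.029 (all reads) against WT shRTP801, 0.70 and 0.63 (all reads, deposited) for the interaction, and 0.10 (without the most abundant family) and 0.0098 (covariate) for WT shRTP801 against WT shCT. These scales moved the median of all families, for precursors to −0.86 and −1.002 for 5xFAD shCT against WT shCT.

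With the mature share as a covariate, pre-tRNA-Phe-GAA turned to −0.22 for 5xFAD shRTP801 against 5xFAD shCT, −0.26 against WT shRTP801 and −0.13 for the interaction. Its ratio to mature reads turned to 0.21, 0.68, −0.72 and −1.40 for 5xFAD shCT and WT shRTP801 against WT shCT, 5xFAD shRTP801 against 5xFAD shCT and the interaction, and without the 3 libraries to −0.11 and −0.067 for the last 2. The Trp ratio turned to −0.030 for WT shRTP801 against WT shCT as a ratio of class shares. tRNA-Trp-CCA-3-1 turned to −0.086 and −0.23 (all reads, deposited) for 5xFAD shCT against WT shCT, 0.31 and 0.20 for 5xFAD shRTP801 against 5xFAD shCT, and 0.16 and 0.10 for the interaction. Without the 3 libraries, the percentage of pre-tRNA-Trp-CCA differed by 0.0091 (log2) between 5xFAD shRTP801 and WT shRTP801, and the mature Trp to Phe ratio by 0.13 and 0.031 for 5xFAD shCT and WT shRTP801 against WT shCT. Over all 18 mice, precursor reads gave 1.06 and 0.37 for that ratio, and 0.77 and 0.29 without the 3 libraries. Untransformed, the Tyr to Phe precursor ratio of 5xFAD shRTP801 against 5xFAD shCT passed its threshold (−2.01), and Tyr to Trp turned to 0.010 against WT shRTP801.

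Counts of calls over all features moved from 0 to 1 mature family and 1 isodecoder in DESeq2 (WT shRTP801 against WT shCT), to 3 in the make-up for 5xFAD shCT against WT shCT with only the groups compared, and without the 3 libraries to 3 and 5 read types (5xFAD shRTP801 against 5xFAD shCT, interaction) and 13 isodecoders in the make-up interaction. Members were among the calls in the last of these alone. Leaving out each mouse, the counts ran from 0 to 2 precursor families, 0 to 1 loci for both contrasts against WT shCT and 0 to 8 for the interaction, 0 to 1 read types, and 0 to 1 and 0 to 7 isodecoders in the make-up (5xFAD shRTP801 against 5xFAD shCT, interaction). The 8 loci, the 7 isodecoders and the read types were called without WT shRTP801 mouse 4, and the 2 precursor families without WT shCT mouse 15, none of them members.

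Leaving out each mouse, mature tRNA-Trp-CCA ran from −0.25 to 0.080 (5xFAD shRTP801 against 5xFAD shCT), −0.14 to 0.039 (against WT shRTP801) and −0.067 to 0.27 (interaction), and pre-tRNA-Trp-CCA from −0.31 to 0.031 (5xFAD shRTP801 against WT shRTP801). As percentages in the exact tests, the first, the second and the last of these ran from −0.22 to 0.073, −0.13 to 0.062 and −0.30 to 0.084. The Phe ratio of precursor to mature reads ran from −0.72 to 0.58 (WT shRTP801 against WT shCT), −0.11 to 0.84 (5xFAD shRTP801 against 5xFAD shCT), −0.98 to 0.31 (against WT shRTP801) and −0.039 to 1.26 (interaction). The mature Trp to Phe ratio ran from −0.28 to 0.13 and −0.21 to 0.18 (5xFAD shCT and WT shRTP801 against WT shCT), and the Tyr to Trp precursor ratio from −0.60 to 0.27 (5xFAD shRTP801 against WT shRTP801). The cause was not tested.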

Other observations

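The mitochondrial tRNAs for the same amino acids are separate genes. mt-Tf (phenylalanine) took 0 to 0.493% of the mitochondrial tRNA reads of a library and mt-Tw (tryptophan) 0.499 to 6.48%. mt-Tf averaged 0.163 ± 0.101% in WT shCT (SD, n = 5), 0.224 ± 0.163% in WT shRTP801 (n = 4), 0.288 ± 0.0591% in 5xFAD shCT (n = 3) and 0.228 ± 0.165% in 5xFAD shRTP801 (n = 6). mt-Tw averaged 2.30 ± 1.64, 2.06 ± 1.24, 2.46 ± 1.51 and 2.90 ± 1.97% in the same groups, and mt-Ty (tyrosine) 1.17 ± 0.947, 0.702 ± 0.268, 1.15 ± 0.899 and 1.61 ± 1.60%. No test was run on these shares, and in the 3 libraries nearly free of mitochondrial tRNA they rest on as few as 4 reads of mt-Tw and 0 of mt-Tf, which in WT shCT mouse 5 allows a share of mt-Tf of up to 0.481% of its 624 mitochondrial tRNA reads.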
